A study of Mus musculus with 53 samples.

Results

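The neuronal nicotinic acetylcholine receptor subunits Chrna3, Chrna4, Chrna5, Chrna7, Chrnb2, Chrnb3 and Chrnb4 were followed in mouse cerebella that lacked either Insm1 or both Tead1 and Tead2 in the granule cell lineage. They are 7 of 55573 genes in the whole-tissue RNA tables and 7 of 57010 genes in the single-cell matrices, found by gene symbol. The set was chosen because Chrna3 and Chrnb4 had given different values under the 2 deletions, so the mutant values of these 2 genes are described without a test, and only the other members are tested for a mutant effect. All animals carried floxed alleles. The first line was Insm1fl/fl without Cre (controls) or with Atoh1Cre (Insm1 mutants). The second carried floxed Tead1 together with floxed Tead2, without Cre (Tead1/2 controls) or with Atoh1Cre (Tead1/2 mutants). Atoh1Cre is active in cells of the Atoh1 lineage, from which granule cells come, so interneurons, glia and vessels keep their alleles. Controls were littermates, and each sample was the cerebellum of 1 animal. At postnatal day (P) 2, whole-cerebellum RNA was sequenced from 4 controls and 4 mutants of the Insm1 line and from 3 controls and 4 mutants of the Tead1/2 line. At P7, single cells of 2 controls and 3 mutants per line were sequenced, 10 libraries in all. Number 1 of each P7 group held all lobules, and the others lacked lobules IX and X.

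Nicotinic receptors are pentameric channels that open on binding acetylcholine and let cations in. Chrna7 can form a channel of its own kind, whereas Chrna3 and Chrna4 are alpha subunits that pair with the beta subunits Chrnb2 or Chrnb4. Chrna5 and Chrnb3 are accessory subunits that join such channels without forming an agonist site of the usual type. The pairing of Chrna3 with Chrnb4 is best known from autonomic ganglia, and that of Chrna4 with Chrnb2 from the brain. Insm1 is a zinc-finger transcription factor of neuronal and endocrine progenitors. Tead1 and Tead2 are DNA-binding partners of the Hippo pathway's co-activators.

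Chrna5, Chrna3 and Chrnb4 lie side by side on chromosome 9. In RefSeq's GRCm38.p6 annotation Chrna5 is at chr9:54980827-55011420 on the plus strand, Chrna3 at chr9:55010117-55026562 and Chrnb4 at chr9:55028154-55048953, both on the minus strand. Chrna5 and Chrna3 overlap by 1304 bases at their 3′ ends. The counting strand is not given in the sources used here, so reads from that overlap cannot be told apart, a limit on every Chrna5 value that follows. Only 1591 bases separate Chrna3 from Chrnb4. The other members lie elsewhere, Chrna4 at chr2:181022311-181043579, Chrna7 at chr7:63098692-63212526, Chrnb2 at chr3:89753448-89764632 and Chrnb3 at chr8:27368711-27399730.

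The 250 bases before the start sites that RefSeq's promoter table uses for Chrna3 and Chrnb4, the 2 neighbours on which the comparison of both deletions turns, are given 5′ to 3′ on the genes' own strand, for GRCm38.p6. They lie at chr9:55026563-55026812 and chr9:55048545-55048794, the latter inside the annotated span of Chrnb4. Both strands were searched for CATTCC, the core letters that TEAD proteins recognise, and for CAGCTG, an E-box read by myogenic and neural basic helix-loop-helix factors. Capitals mark CAGCTG.
Chrna3: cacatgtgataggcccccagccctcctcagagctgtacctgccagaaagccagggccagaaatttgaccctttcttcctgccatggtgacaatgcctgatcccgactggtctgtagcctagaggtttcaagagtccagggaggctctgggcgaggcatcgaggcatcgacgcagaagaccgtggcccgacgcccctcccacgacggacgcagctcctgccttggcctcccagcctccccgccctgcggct
Chrnb4: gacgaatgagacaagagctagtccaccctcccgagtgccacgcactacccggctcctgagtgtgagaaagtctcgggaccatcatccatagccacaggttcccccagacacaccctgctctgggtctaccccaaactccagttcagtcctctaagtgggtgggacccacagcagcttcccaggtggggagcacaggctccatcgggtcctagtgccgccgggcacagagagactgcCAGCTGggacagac
Neither window held CATTCC, nor did those of Chrna4, Chrna5, Chrna7 and Chrnb2. Chrnb3 was not searched. Of all 32851 promoters, 12.642% held it in a window of this length. CAGCTG occurred once upstream of Chrnb4 and not upstream of Chrna3, against 13.001% of all promoters. These matches describe letters only.

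Insm1 and Tead2 followed the labels in all but 1 library, and Tead1 did not show the deletion at either age. Insm1 was 30.8 to 72.0 CPM (counts scaled to a common library total by the TMM method) in P2 Insm1 controls and 8.45 to 16.1 in Insm1 mutants. Tead2 was 22.4 to 25.8 in P2 Tead1/2 controls and 17.4 to 19.5 in 3 of the mutants, but 25.9 in the library labelled Tead1/2 mutant 4. That library also had Myog, a muscle regulator, at 0.415 CPM, where the other 3 Tead1/2 mutants had 29.0 to 36.8. Log2 differences of the Tead1/2 line at P2 are therefore given with and without it. Tead1 at P2 was 34.8 to 53.8 in Tead1/2 controls, against 36.9 to 50.2 in the mutants, and the groups overlapped. At P7 Insm1 was 56.7 to 58.6 in its controls and 5.78 to 14.5 in its mutants. Tead2 was 30.3 to 31.5 and 7.22 to 8.95 in its own line, whereas Tead1 read 632 to 635 in controls and 1127 to 1327 in mutants. These count reads over the whole gene and do not show which exons remained. The Tead1/2 controls, which carry the floxed alleles without Cre, had less Tead2 than the Insm1 controls, which read 79.3 to 90.04 CPM at P2 and 63.0 to 64.9 at P7. Tead1 in Insm1 controls was 61.0 to 101.8 at P2, also above the Tead1/2 controls, but 565 to 598 at P7, below them. The P2 libraries of each line formed a batch of their own, so line and batch cannot be told apart at P2. P2 libraries held 2.81e+07 to 6.45e+07 counts.

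At P2, Chrna3 was lower in both mutants than in the controls of the same line. Chrna3 read 25.2, 23.8, 30.7 and 31.4 CPM in the 4 Insm1 controls, against 17.5, 17.5, 21.4 and 19.2 in the 4 mutants. It read 21.3, 29.4 and 26.2 in the 3 Tead1/2 controls, against 9.30, 8.28, 10.1 and 21.6 in the 4 mutants. The Insm1 groups did not overlap, as was the case in the same direction for 3.01% of all genes, and the Tead1/2 groups overlapped only through the library labelled mutant 4. The log2 difference between mutants and controls was -0.55 ± 0.11 (SE) for Insm1, a ratio of 0.682. For Tead1/2 it was -1.09 ± 0.28, and -1.49 ± 0.12 without the library labelled mutant 4. Chrna3 is the alpha subunit of the ganglionic type of receptor.

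Chrnb4 is the beta partner of Chrna3 in that receptor. It read 4.64, 3.73, 3.85 and 4.80 CPM in Insm1 controls, against 2.10, 3.42, 2.70 and 4.48 in the mutants. It read 2.36, 4.39 and 3.02 in Tead1/2 controls, against 1.79, 1.42, 1.66 and 2.84 in the mutants. Both pairs of groups overlapped, those of Tead1/2 again only through the library labelled mutant 4. The log2 differences were -0.42 ± 0.21 and -0.79 ± 0.26, and the latter was -1.02 ± 0.23 without that library. The Insm1 effect minus the Tead1/2 effect was 0.52 ± 0.33 log2 units for Chrna3 and 0.35 ± 0.37 for Chrnb4, the estimated fall being the smaller with Insm1 deletion. Without the library labelled mutant 4 the difference was 0.93 ± 0.18 for Chrna3 and 0.58 ± 0.34 for Chrnb4.

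None of the 4 other members that could be tested at P2 passed the test in either mutant. Calls rest on edgeR's quasi-likelihood test with Benjamini-Hochberg adjustment over all genes at 0.05. By this test 0.689% of 19582 genes were called for Insm1, and 0.0% of 20247 genes for Tead1/2, where 4052 genes had an unadjusted p under 0.05 and DESeq2 called 960. Without the library labelled mutant 4, 3.19% were called for Tead1/2. Chrna5 ranged from 1.33 to 2.52 CPM over all 15 libraries, with log2 differences of -0.20 (edgeR adjusted p = 0.755) for Insm1 and -0.43 (0.187) for Tead1/2, or -0.48 (0.163) without the library labelled mutant 4. Chrna4 ranged from 12.8 to 23.4 CPM and Chrna7, the homomeric subunit, from 4.65 to 6.96, with adjusted p of 0.345 or more in both lines. Without that library the Tead1/2 log2 differences were -0.20 for Chrna4 (edgeR adjusted p = 0.302) and -0.08 for Chrna7 (0.732). Chrnb2 ranged from 54.3 to 70.4, with a log2 difference of -0.18 for Tead1/2 (edgeR adjusted p = 0.148). Without the library labelled mutant 4 this became -0.23 (edgeR adjusted p = 0.0484). Chrnb3 was at 0.0277 to 0.32 CPM and fell under the filter on low counts. The test of a difference between both mutant effects called 0.0% of 20837 genes (1435 at an unadjusted p under 0.05, 17 by DESeq2), and no member, and 0 genes also without the library labelled mutant 4.

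No member passed the test between the controls of both lines at P2. Of all genes 8.37% differed between Insm1 controls and Tead1/2 controls, and none of the 6 members tested did. Chrna3 differed by 0.11 ± 0.24 log2 units (edgeR adjusted p = 0.799). Chrna4 came nearest, at 20.1 ± 2.56 CPM (SD, n = 4) in Insm1 controls and 15.7 ± 1.77 (n = 3) in Tead1/2 controls. That is 0.36 ± 0.12 log2 units (edgeR adjusted p = 0.0724), and it was called by DESeq2 (0.0424), without the low-count filter (0.0402) and without Insm1 control 3 (0.0367) or Insm1 mutant 1 (0.0357). Batch and line cannot be told apart here.

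**Figure D1:**
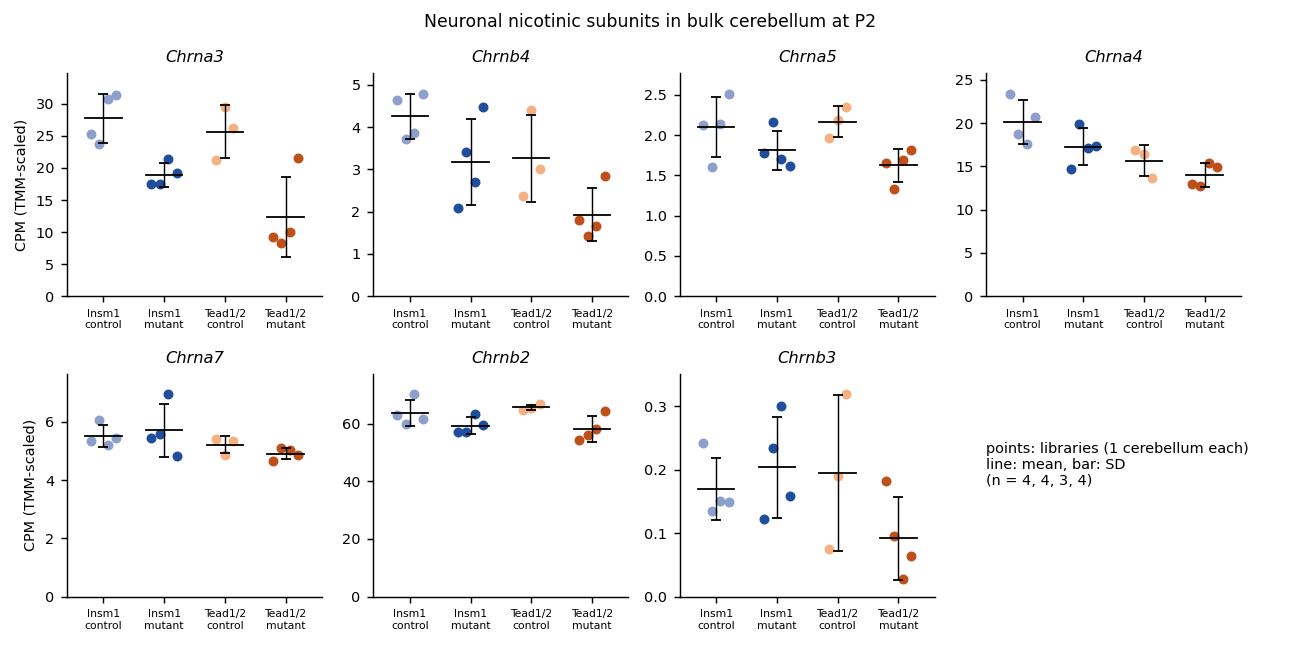
CPM (linear axes from 0) of the members in each of the 15 whole-cerebellum libraries at P2, by group; points are animals, lines are group means and bars are SD. Chrna3 is at 8.28 to 10.1 in 3 Tead1/2 mutants and at 21.6 in the library labelled mutant 4, the latter at the lower edge of the controls at 21.3 to 29.4.

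Dissected tissue can bring neighbouring cells that express these subunits. Genes of the brainstem, whose motor and monoamine nuclei use Chrna3 and Chrnb4, summed to 1.93 to 10.1 CPM over 16 genes in the P2 libraries, 1 of which stayed under 0.1 CPM in every library. Genes of autonomic and sensory ganglia summed to 1.90 to 7.63 over 8 genes, 1 of them under 0.1 CPM throughout. The midbrain roof genes summed to 199 to 244 CPM in controls of the Insm1 line, against 148 to 221 in its mutants. In the Tead1/2 line the sums were 186 to 201 and 145 to 189, or 145 to 158 in the mutants without the library labelled mutant 4. The last list was thus lower in these 3 Tead1/2 mutants than in each control, in the direction of Chrna3, and its part in the P2 result was not tested. Whether its transcripts came from midbrain tissue or from cerebellar cells was not tested either. At P7, 4 of the 8 midbrain roof genes passed the filter on low counts in sums over granule-lineage cells. There 2 were called higher and 1 lower with Insm1 deletion, and 2 higher and 2 lower with Tead1/2 deletion. Of all genes 19.7% and 22.5% were called in those sums. In P7 all-cell sums the midbrain roof list was at 1015 to 1181 CPM in controls and 481 to 779 in mutants, again the direction of Chrna3. The median log2 difference of its 5 tested genes had the opposite sign, at 0.65 (Insm1) and 0.18 (Tead1/2), against 0.03 and 0.06 over all genes. Of its 8 genes 3 stayed under 0.1 CPM in every P7 library. The brainstem list was then at 0.84 to 1.09 in controls and 4.01 to 7.87 in mutants, the opposite direction. In bulk tissue, fewer cells of a type and less RNA per cell cannot be told apart.

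At P7, in sums over all kept cells, the 2 deletions parted. The 10 libraries gave 75841 kept cells, 4540 to 10174 per library, at medians of 6604 to 9714 transcripts tagged with molecular identifiers (UMIs) per cell, and no barcode was shared between libraries. Chrna3 read 43.4 and 41.9 CPM in Insm1 controls, against 18.8, 27.01 and 20.5 in the mutants. It read 45.8 and 39.1 in Tead1/2 controls, against 5.27, 3.50 and 3.06 in the mutants. All mutants were below all controls, and every Tead1/2 mutant was below every Insm1 mutant. Mutants all below the controls of their line were met in 27.6% of genes for Insm1 and in 30.8% for Tead1/2. No such share was computed for Tead1/2 mutants against Insm1 mutants.

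Chrnb4 did not follow Chrna3 in the Insm1 line. It read 4.90 and 4.81 CPM in Insm1 controls, against 4.99, 8.97 and 7.0 in the mutants. In Tead1/2 controls it read 7.15 and 5.07, and in Tead1/2 mutants 0.855, 0.600 and 0.452. The Insm1 mutants were thus at or above their controls, while the Tead1/2 mutants were far below theirs. The log2 differences were 0.53 ± 0.26 (Insm1) and -3.30 ± 0.28 (Tead1/2) for Chrnb4. They were -0.95 ± 0.20 and -3.44 ± 0.21 for Chrna3, ratios of 0.518 and 0.092.

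**Figure D2:**
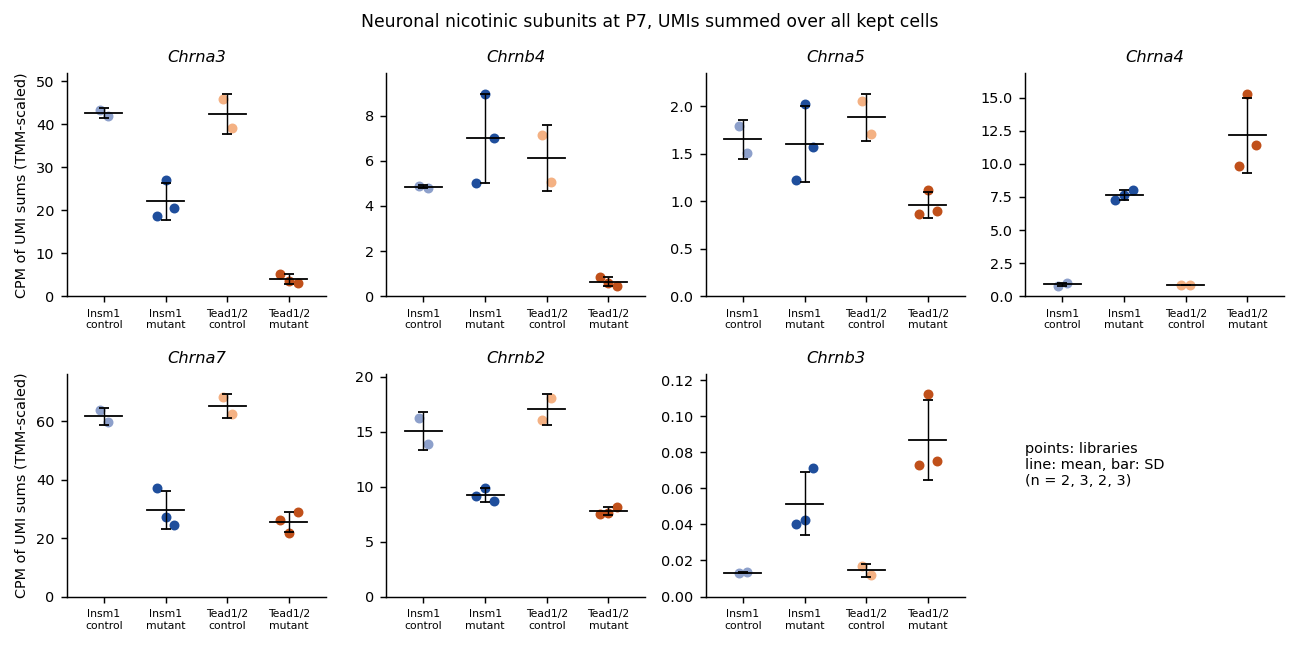
CPM (linear axes from 0) of the members in UMI sums over all kept cells of each P7 library, by group; points are libraries, lines are group means and bars are SD. Chrna3 and Chrnb4 are lowest in Tead1/2 mutants, at 3.06 to 5.27 and 0.452 to 0.855, while Chrna4 is at 7.26 to 15.3 in mutants of both lines and at or below 0.988 in controls.

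Chrna7, Chrnb2 and Chrna4 moved the same way in both lines. Chrna7 fell from 63.7 and 59.7 CPM to 37.2, 27.1 and 24.6 in the Insm1 line (log2 difference -1.06, edgeR adjusted p = 0.000649). It fell from 68.2 and 62.4 to 26.1, 21.8 and 28.8 in the Tead1/2 line (-1.35, edgeR adjusted p = 6.63e-05). Chrnb2, the brain's main beta subunit, fell from 16.3 and 13.9 to 9.20, 9.89 and 8.67 with Insm1 deletion (-0.70, edgeR adjusted p = 0.000279). With Tead1/2 deletion it fell from 16.0 and 18.1 to 7.54, 7.58 and 8.18 (-1.13, edgeR adjusted p = 5.58e-06). Chrna4 rose from under 1 CPM in all 4 controls to 7.26, 7.67 and 8.01 in Insm1 mutants (3.09, edgeR adjusted p = 1.64e-06). In Tead1/2 mutants it rose to 9.82, 15.3 and 11.4 (3.85, edgeR adjusted p = 3.04e-07).

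Chrna5, the third gene of the cluster, passed the test in the Tead1/2 line. It read 2.06 and 1.71 CPM in Tead1/2 controls and 0.867, 1.125 and 0.895 in mutants (-0.96 ± 0.22, edgeR adjusted p = 0.00450), and the call was lost without Tead1/2 control 1 (0.0508). In the Insm1 line it read 1.80 and 1.51, then 1.22, 2.03 and 1.57 (-0.04, edgeR adjusted p = 0.919). The difference between both effects was 0.92 log2 units and did not pass (edgeR adjusted p = 0.134). Background rates in these sums were high, with 33.3% of 24098 genes called for Insm1, 48.7% for Tead1/2 and 3.47% for the difference, so calls of 3 and 4 of the 4 tested members are read against them. None of those 4 passed the test of the difference, Chrna7 at 0.30 (0.517), Chrnb2 at 0.43 (0.111, and 0.0369 by DESeq2) and Chrna4 at -0.76 (0.148). Chrnb3 stayed at or under 0.113 CPM in each library.

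The makeup of the libraries differed between groups at P7, which bears on any sum over all cells. Cells were clustered and named from marker genes. Muscle-like cells were 0.059% of cells or fewer in control libraries, 16.2% to 18.7% in Insm1 mutants and 25.2% to 36.0% in Tead1/2 mutants. Clusters that stayed unnamed, because they mixed markers of several classes or had too few markers or too low a depth, held 36.9% to 44.2% of control cells and 8.45% to 12.6% of mutant cells. The largest of them, of 5950, 5502 and 5447 cells, carried 7, 7 and 5 granule progenitor markers, beside markers of granule neurons or interneurons. Granule-class sums of the main selection leave these cells out. Removing the 40% of cells with the highest doublet scores, a stricter selection chosen after seeing the data, left 47899 cells, of which 0.566% to 8.12% were unnamed. Values within a class are given from the main selection, with those of the stricter one beside them where they moved by more than the spread between replicates or changed a call.

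In granule progenitor-like cells, whose 3 clusters share the markers Gli1, Gli2, Ptch1, Mycn and Barhl1, Chrna3 stood apart in Tead1/2 mutants. Atoh1 was a marker of 2 of these clusters and not of the one led by Tacr1, Chst9 and Runx1t1, which held the largest share of Tead1/2 mutant cells. Chrna3 read 51.5 and 52.9 CPM in Insm1 controls, against 43.1, 72.8 and 58.5 in the mutants. It read 64.8 and 51.0 in Tead1/2 controls, against 9.07, 4.71 and 2.64 in the mutants. The Insm1 mutants lay on both sides of their controls, and the Tead1/2 mutants were all far below theirs. The log2 differences were 0.16 ± 0.25 and -3.46 ± 0.30, the latter a ratio of 0.0911.

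Chrnb4 was higher with Insm1 deletion and lower with Tead1/2 deletion. It read 8.37 and 8.85 CPM in Insm1 controls, then 15.02, 26.2 and 23.3 in Insm1 mutants. It read 16.6 and 11.2 in Tead1/2 controls, then 1.77, 1.20 and 0.660 in Tead1/2 mutants. Neither pair of groups overlapped, in opposite directions. In the same class 24.4% of genes had Insm1 mutants all above controls and 24.3% had Tead1/2 mutants all below. The log2 differences were 1.32 ± 0.25, a ratio of 2.51, and -3.58 ± 0.32, a ratio of 0.0836. With the stricter selection they were 1.47 ± 0.30 and -3.02 ± 0.40, and those of Chrna3 were 0.25 ± 0.30 and -3.10 ± 0.36.

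Chrna5, which the choice of members did not rest on, could be tested in these cells. It read 1.32 and 1.26 CPM in Insm1 controls, against 2.98, 3.15 and 2.61 in the mutants, from 10 to 34 UMIs per library. It read 3.08 and 1.962 in Tead1/2 controls, against 0.939, 1.20 and 0.413 in the mutants, from 5 to 48 UMIs. Insm1 mutants were all above and Tead1/2 mutants all below their own controls. Chrna5 rose with Insm1 deletion by 1.17 ± 0.37 log2 units (edgeR adjusted p = 0.0381), a call lost under 7 of 12 alternatives, the stricter selection among them (0.0523), over which the adjusted p ran from 0.0191 to 0.169. It fell with Tead1/2 deletion by 1.61 ± 0.36 (edgeR adjusted p = 0.00453), a call lost without Tead1/2 control 1 (0.137). The test of the difference gave 2.79 ± 0.52 log2 units (edgeR adjusted p = 0.0105), where 2.19% of 15039 genes were called. With the stricter selection the difference was 3.01 (edgeR adjusted p = 0.0136). The call was lost without Insm1 control 1 (0.0702), Insm1 control 2 (0.0503) or Tead1/2 control 1 (0.122). The 2 control groups themselves differed in level, the Tead1/2 controls being higher in Chrna5 and Chrnb4 than the Insm1 controls. The shared 3′ end with Chrna3 applies here, and its part was not tested. The clusters that make up this class differed in share between both mutants, as given below. Chrna5 was not read cluster by cluster in progenitor-like cells, so the part of makeup in this difference was not tested.

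Chrna7 and Chrnb2 lie outside the chromosome 9 cluster and were tested in progenitor-like cells. Chrna7 read 105 and 115 CPM in Insm1 controls and 59.6, 27.2 and 32.1 in mutants, a fall of 1.47 log2 units (edgeR adjusted p = 0.000239). In the Tead1/2 line it read 121 and 109, then 55.9, 46.8 and 59.4, a fall of 1.09 (edgeR adjusted p = 0.00163). Chrna7 thus fell in both, and the difference between both effects did not pass (-0.37, edgeR adjusted p = 0.742), although it did without Insm1 mutant 1 (-0.81, 0.0187). Chrnb2 fell with Insm1 deletion, from 8.70 and 9.10 to 4.53, 4.63 and 5.54 (-0.88, edgeR adjusted p = 0.00165). With Tead1/2 deletion Chrnb2 read 9.49 and 11.01, then 7.51, 8.74 and 8.75 (-0.28, edgeR adjusted p = 0.193). The difference for Chrnb2 was -0.59 (edgeR adjusted p = 0.279) and did not pass. In this class 19.5% of genes were called for Insm1 and 23.9% for Tead1/2.

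Chrna4 in progenitor-like cells rested on few transcripts. It had 0 and 1 UMIs in the 2 Insm1 controls and 3 and 4 in the 2 Tead1/2 controls, against 3 to 13 in Insm1 mutants, against 9 to 20 in Tead1/2 mutants. The levels were 0 and 0.126 CPM, then 0.552, 1.20 and 0.489 in the Insm1 line, and 0.193 and 0.436, then 0.939, 1.20 and 1.65 in the Tead1/2 line. Chrna4 passed the low-count filter only through the mutant libraries in which it is higher, so no test is read from it in this class. Muscle-like cells of the same libraries carried Chrna4 at 37.1 to 72.6 CPM under the stricter selection, and RNA released by them was not tested as a source.

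In granule neuron-like cells, whose clusters share Neurod1, Neurod2 and Rbfox3, Chrna3 was lower in both mutants. Cntn2 and Pax6 were markers of each of these clusters but the one led by Galntl6 and Slit3, which held the largest share of Insm1 mutant cells. It read 64.0 and 65.8 CPM in Insm1 controls, against 22.5, 29.9 and 29.5 in the mutants. It read 64.2 and 56.6 in Tead1/2 controls, against 13.7, 8.13 and 9.05 in the mutants. No groups of a line overlapped, as for 27.8% of genes in the Insm1 line and 25.0% in the Tead1/2 line in this direction. The log2 differences were -1.25 ± 0.15 and -2.58 ± 0.17, the latter -2.24 ± 0.15 with the stricter selection. The Insm1 mutants, at control level in the progenitor-like cells, were therefore below it in the neuron-like cells.

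Chrnb4 in neuron-like cells was at control level in the Insm1 line or below it, depending on the selection of cells. It read 6.19 and 6.01 CPM in Insm1 controls, against 3.93, 7.10 and 7.72 in the mutants, a log2 difference of 0.0021 ± 0.25. With the stricter selection the difference was -0.80 ± 0.30. Under each of the 3 alternatives run for its level, Insm1 mutants were at 2.37 to 3.51 CPM, against 5.74 to 6.25 in Insm1 controls. In the Tead1/2 line Chrnb4 read 4.52 and 4.51, then 0.844, 0.670 and 0.992 (-2.44 ± 0.37, or -2.03 ± 0.38 with the stricter selection). Chrna5 fell in the Tead1/2 line, from 2.90 and 1.72 to 0.422, 0.670 and 0.868 (-1.81, edgeR adjusted p = 0.00783, but 0.139 without Tead1/2 control 1). In the Insm1 line Chrna5 read 1.62 and 2.59, then 1.09, 1.71 and 0.757 (-0.69, edgeR adjusted p = 0.220). The difference between both effects on Chrna5 did not pass here (1.1, edgeR adjusted p = 0.571). Over all granule-lineage cells together it was 1.98 (edgeR adjusted p = 0.0447), where 1.1% of 16779 genes were called. That call was lost on leaving out any 1 of 8 libraries, namely Insm1 control 1 or 2, any Insm1 mutant, Tead1/2 control 1, or Tead1/2 mutant 1 or 3 (adjusted p up to 0.253).

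Chrna7 had the opposite sign in neuron-like cells to that in progenitor-like cells. In the Insm1 line it rose from 15.5 and 13.1 CPM to 32.3, 22.2 and 22.7 (0.84, edgeR adjusted p = 0.00473). The call was lost without Insm1 control 2 (0.055). In the Tead1/2 line it read 14.1 and 16.2, then 20.1, 20.1 and 29.0 (0.61, edgeR adjusted p = 0.0349), a call lost with the stricter selection (0.21, 0.390) and under 5 of 12 alternatives in all. In control cells the level itself was higher in progenitor-like cells (105 to 121 CPM) than in neuron-like cells (13.1 to 16.2), and mutants of both lines lay between these ranges in either class. Chrnb2 fell in both lines, from 24.3 and 24.03 to 14.8, 17.8 and 16.0 (-0.57, edgeR adjusted p = 0.000981) and from 29.3 and 29.0 to 18.4, 17.4 and 19.2 (-0.67, edgeR adjusted p = 0.000306). With the stricter selection the Insm1 value was -0.09 (0.598) and the Tead1/2 value -0.43 (0.0069). In neuron-like cells 32.2% of genes were called for Insm1, 31.8% for Tead1/2 and 0.64% for the difference.

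**Figure D3:**
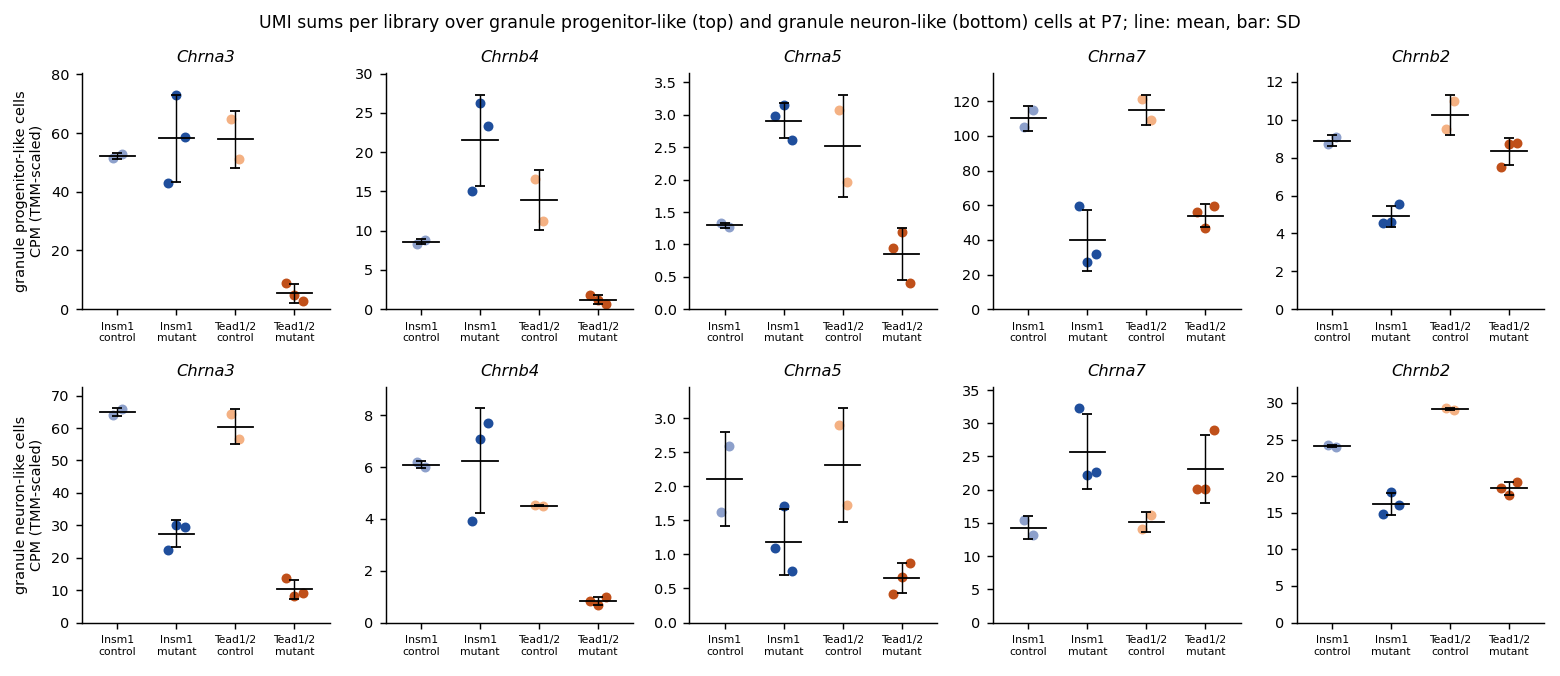
CPM (linear axes from 0) of Chrna3, Chrnb4, Chrna5, Chrna7 and Chrnb2 in UMI sums over granule progenitor-like (top) and granule neuron-like (bottom) cells of each P7 library; points are libraries, lines are group means and bars are SD. In progenitor-like cells Chrnb4 is at 15.02 to 26.2 in Insm1 mutants, against 0.660 to 1.77 in Tead1/2 mutants, with controls of both lines at 8.37 to 16.6.

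The classes were not made of the same clusters in controls and mutants. Of progenitor-like cells, 1 cluster led by Eln, Cfap77 and Sfrp1 held 99.6% in Insm1 controls and 99.5% in Tead1/2 controls, but 10.4% and 18.6% in the mutants. A cluster with Slit1 and Thsd7b among its leading genes held 58.9% in Insm1 mutants and 18.3% in Tead1/2 mutants. A cluster led by Tacr1, Chst9 and Runx1t1 held 30.8% and 63.1%. Among neuron-like cells, the cluster led by Zmat4 held 75.1% and 82.4% in controls. The cluster led by Galntl6 and Slit3 held 57.7% of the Insm1 and 36.4% of the Tead1/2 mutant cells, and that led by Fat2, Il16 and Cnr1 held 26.1% and 43.0%. Makeup therefore moves with genotype within each class. Chrna3, Chrna7 and Chrnb2 were also read cluster by cluster. Chrnb4 was read in 1 progenitor-like cluster only, and Chrna5 in 1 neuron-like cluster only, with libraries pooled.

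Read cluster by cluster in the stricter selection, the mutants of both lines were far apart for Chrna3 in 2 clusters, and closer or overlapping in the others that had values per library. In the progenitor-like cluster with Slit1 and Epha6 among its leading genes (cluster 1), which held 4 cells of Insm1 controls, Chrna3 read 71.5, 114 and 88.6 CPM in Insm1 mutants. In the same cluster it read 4.32, 8.66 and 9.71 in Tead1/2 mutants, from 31, 129 and 56 cells. Chrnb4 there read 25.4, 40.1 and 32.7 in Insm1 mutants, against 0, 5.51 and 1.94 in Tead1/2 mutants.

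The neuron-like cluster led by 9330185C12Rik, Gm14061 and Ntng1 (cluster 23) gave the same order. Chrna3 read 37.7, 51.7 and 42.8 CPM in Insm1 mutants and 5.57, 8.83 and 6.06 in Tead1/2 mutants. Chrna5 there had 13 UMIs in pooled Insm1 mutants and 0 in pooled Tead1/2 mutants, which allows a level of up to 0.743 CPM. By contrast Chrna3 was low in both mutants in the clusters that few control cells joined and that were led by Atp2b3 and Slc35f1 (cluster 4), by Tacr1 and Cenpp (cluster 28), or by Fat2 and Il16 (cluster 5). Their Insm1 mutants read 0 to 12.6 and their Tead1/2 mutants 0 to 2.98. In the cluster led by Galntl6 and Syt6 (cluster 15) the ranges were 5.30 to 19.5 and 3.57 to 12.8, and overlapped.

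Clusters that held cells of all 4 groups gave smaller gaps. In the progenitor-like cluster led by Otx2os1 and Slfn9 (cluster 6), Chrna3 read 41.6 and 37.7 CPM in Insm1 controls, against 13.2, 23.96 and 21.1 in the mutants. There it read 51.8 and 43.0 in Tead1/2 controls, against 17.0, 7.72 and 6.33 in the mutants. In the neuron-like cluster led by Gprin3 and Cntn2 (cluster 8) it read 76.4 and 87.6, then 44.2, 95.8 and 67.4 in the Insm1 line. The Tead1/2 line in that cluster read 74.1 and 71.5, then 38.2, 45.1 and 38.5, a gap far narrower than in the class as a whole. In the cluster led by Zmat4 (cluster 9) the Insm1 line read 54.1 and 47.5, then 29.8, 58.3 and 41.3. The Tead1/2 line there read 52.3 and 39.9, then 28.6, 25.4 and 38.3. In the progenitor-like cluster with the lowest depth (cluster 0, led by Stpg4 and L3mbtl1) the Insm1 line read 25.9 and 39.2, then 34.6, 45.0 and 36.3, and the Tead1/2 line 43.8 and 30.7, then 39.3, 13.2 and 16.2. Insm1 and Tead1/2 mutants overlapped for Chrna3 in each of these 4 clusters. For Chrnb4 these 4 clusters are plotted by library below, and no values are stated. Whether its opposite directions in the progenitor-like class remain within clusters 0 and 6 was not tested. Progenitor-like clusters 2 (led by Cyp11a1 and Eln) and 3 (led by H1f5 and Gm45194) held mostly control cells and can be given only with libraries pooled. In cluster 2 Chrna3 went from 79.0 CPM in controls to 145.7 in mutants of the Insm1 line, against 88.6 and 57.5 in the Tead1/2 line, the last from 14 UMIs in 45 cells (exact 95% interval 31.4 to 96.4). In cluster 3 these values were 39.4 and 90.7, then 44.6 and 53.9, the last from 9 UMIs in 21 cells (24.7 to 102.4). Each of these values counts cells that clustered with controls, so cells that joined other clusters are not in it.

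For Chrna7 the groups of each line overlapped in the progenitor-like clusters 0 and 6, which controls and mutants shared. In cluster 6 it read 120 and 125 CPM in Insm1 controls, then 146, 55.4 and 99.3 in the mutants, and 139 and 110, then 96.8, 96.2 and 115 in the Tead1/2 line. In the progenitor-like clusters that few or no control cells joined (1, 4 and 28) it read 13.3 to 34.6 in Insm1 mutants and 11.7 to 38.6 in Tead1/2 mutants. In the neuron-like cluster 8 the groups of each line overlapped too, at 13.5 to 39.7 over all libraries. In cluster 9 only the Tead1/2 mutants, at 11.7 to 15.9, were all above their controls, at 8.90 and 10.4.

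Chrnb2 was lower in mutants within cluster 6, at 18.4 and 16.3 CPM in Insm1 controls against 7.91, 8.98 and 12.03 in the mutants. The Tead1/2 line there read 16.4 and 14.3, then 11.4, 8.23 and 9.32. In cluster 0 the Insm1 groups were apart likewise, at 16.8 and 18.8 against 7.69 to 10.2, and the Tead1/2 groups overlapped. In clusters 8 and 9 Chrnb2 ranged from 14.5 to 34.5 over all libraries, and the groups of each line overlapped. These cluster values rest on 2 to 396 UMIs per library for both genes and were not tested. The share of all genes whose groups stood apart was not computed for any cluster. In the granule classes of the main selection it was 24.3% to 27.8% for a given direction.

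**Figure D4:**
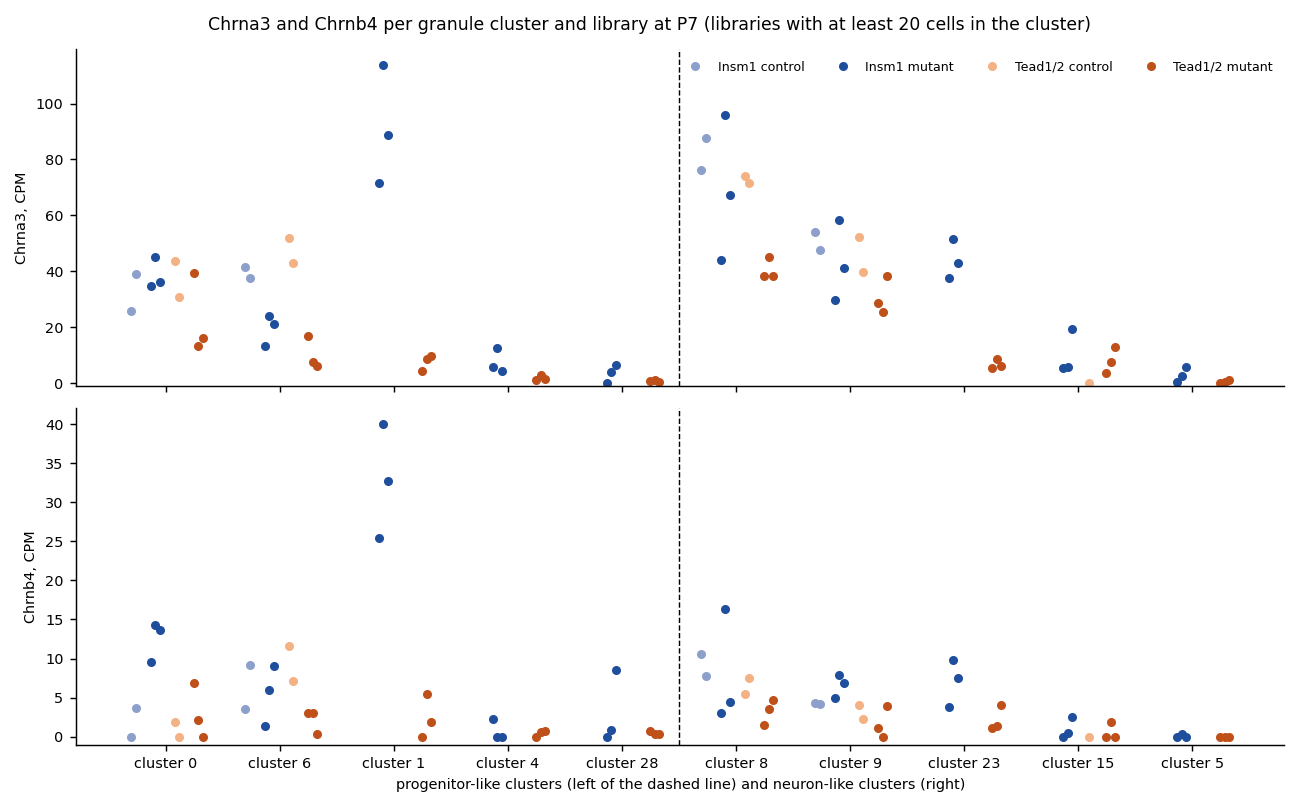
CPM (linear axes) of Chrna3 (top) and Chrnb4 (bottom) in 10 granule-lineage clusters of the stricter selection; each point is 1 library with at least 20 cells in the cluster, and colour gives the group. In cluster 1 Insm1 mutants are at 71.5 to 114 for Chrna3 and Tead1/2 mutants at 4.32 to 9.71; clusters 0, 6, 8 and 9 hold points of all 4 groups.

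Shares of cells with a Chrna3 transcript gave the same order as the summed level for Tead1/2 mutants, which were lowest. Cells were thinned to 2000 UMIs, and shallower cells were left out. Of the remaining progenitor-like cells, 9.97% of Insm1 control, 9.68% of Insm1 mutant, 11.7% of Tead1/2 control and 1.09% of Tead1/2 mutant cells had at least 1. Unthinned, the shares were 24.2%, 21.8%, 31.2% and 3.39%. Microglia-like cells, which should lack the gene, comprised a cluster led by Mpeg1, Fcrls and Cx3cr1 and one of similar size led by Mrc1, F13a1, Stab1 and Lyve1, genes known from macrophages at the brain's borders. They gave 5.76%, 2.22%, 3.80% and 0.227% thinned, at medians of 5207 to 8090 UMIs, so a share near these values is background. With the stricter selection progenitor-like cells had 9.26%, 9.79%, 10.7% and 1.15%, at medians of 5441 to 6415 UMIs. Microglia-like cells then had 4 of 135, 2 of 147, 0 of 240 and 0 of 676 cells, at medians of 4074 to 4848. The exact 95% binomial interval of the 1.15%, over cells pooled from 3 animals, was 0.827% to 1.54%. It covers counting error only, not the spread between animals.

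Cells outside the Cre lineage were read for Chrna7 and Chrnb2 as well. In GABAergic interneuron-like cells Chrna7 read 43.1 and 56.1 CPM in Insm1 controls and 53.4, 59.3 and 40.4 in mutants, and 60.0 and 33.6, then 51.3, 50.4 and 49.8 in the Tead1/2 line. Chrnb2 ranged from 16.2 to 21.9 over all 10 libraries. Groups overlapped throughout. The log2 differences were 0.08 and 0.07 for Chrna7 (edgeR adjusted p = 0.978 and 0.967), and 0.14 and 0.08 for Chrnb2 (0.946 and 0.947). Of 12515 genes 0.00799% were called for Insm1 and 0.767% for Tead1/2. Chrna3 was 1.25 to 4.96 CPM in these cells.

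Glia of the main selection did not give the same picture as interneurons. In astroglia-like cells Chrna7 fell from 55.8 to 56.4 CPM in Insm1 controls to 22.3 to 33.2 in the mutants (-1.11, edgeR adjusted p = 0.00461), and from 46.2 to 54.8 to 13.8 to 30.6 in the Tead1/2 line (-1.13, edgeR adjusted p = 0.0066). In oligodendrocyte-lineage cells it fell by 0.91 and 0.92 log2 units (edgeR adjusted p = 0.00146 and 0.000937). Chrnb2 fell in both classes and both lines, by 0.64 to 1.26 log2 units (edgeR adjusted p = 0.00164 to 0.0224). Of 16962 genes in astroglia-like cells 18.0% were called for Insm1 and 20.8% for Tead1/2, and of 16073 in the oligodendrocyte lineage 18.3% and 25.7%.

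Chrna3 itself read 24.7 to 38.7 CPM in astroglia-like cells of controls, 16.3 to 23.01 in Insm1 mutants and 4.0 to 5.01 in Tead1/2 mutants. Under the stricter selection it was 2.54 to 9.78 in the controls of this class and at most 3.12 in mutants. The stricter selection left no call for Chrna7 in glia. Its log2 differences were then -0.88 and -0.52 in astroglia-like cells (edgeR adjusted p = 0.113 and 0.557), and 0.45 and -0.17 in the oligodendrocyte lineage (0.807 and 1.0), and Chrnb2 fell under the low-count filter in both classes. RNA of granule cells in the glial classes of the main selection was not tested.

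Chrna4 transcripts were found mostly in the muscle-like cells of mutants. Under the stricter selection 83.7% of all Chrna4 UMIs of Insm1 mutants and 90.8% of those of Tead1/2 mutants lay in that class. Its level there was 72.6, 50.4 and 37.1 CPM in the 3 Insm1 mutants and 46.7, 47.7 and 47.0 in the 3 Tead1/2 mutants. Controls had 5 muscle-like cells in all, with 2 Chrna4 UMIs. Muscle-like clusters led by different genes held Chrna4 at 8.19 to 94.97 CPM in pooled mutant cells. Oligodendrocyte-lineage cells, the main holders in controls with 34.5% and 52.5% of Chrna4 UMIs, read 9.82 and 10.2 CPM in pooled controls and 7.17 and 12.8 in pooled mutants. Chrna3 and Chrna7 were near 0 in muscle-like cells, at 2.27 and 0.223 CPM and at 2.99 and 2.01 CPM.

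**Figure D5:**
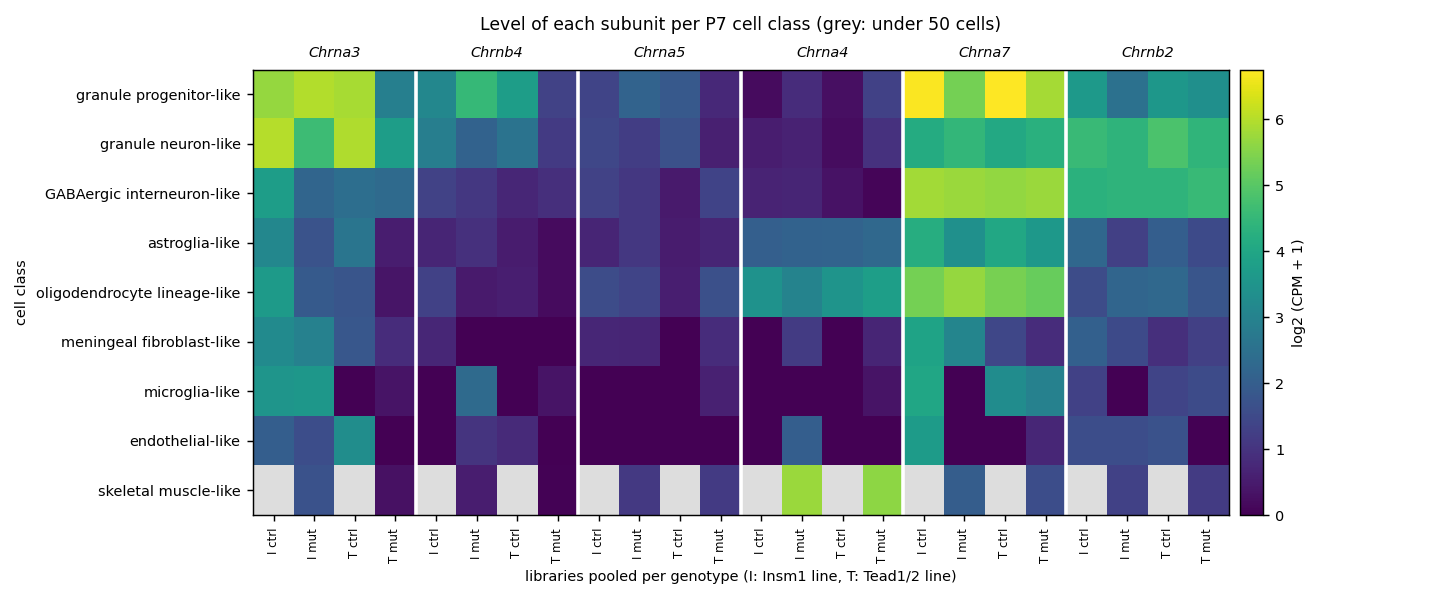
Level of 6 members, as log2 of CPM plus 1 (colour scale), in each named cell class of the stricter selection at P7, with the libraries of a genotype pooled; grey marks fewer than 50 cells. The brightest Chrna4 fields are the muscle-like cells of both mutants, at 52.0 and 47.3 CPM, and Chrna3 is brightest in the granule classes.

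The other genes of cholinergic signalling were read from lists drawn up by function. Of 9 muscle and other nicotinic subunits, 7 could be tested in P7 all-cell sums, and 6 rose with Insm1 deletion and 7 with Tead1/2 deletion, none falling. A gene near 0 in controls can pass the low-count filter only through the mutants in which it is higher. Such a gene could hardly be called lower, so this count is a description. The median log2 difference was 4.18 and 5.23, against 0.03 and 0.06 over all genes, of which 33.3% and 48.7% were called in either direction. These were led by the subunits of the receptor at the neuromuscular junction, Chrng (6.79 and 7.95), Chrnd (6.60 and 8.71), Chrna1 (6.37 and 8.09) and Chrnb1 (4.18 and 5.23). The summed level of that list was 1.32 to 2.18 CPM in controls, 49.3 to 55.2 in Insm1 mutants, against 91.4 to 130 in Tead1/2 mutants, moving with the share of muscle-like cells. At P2, 1 of the 3 tested rose in the Insm1 line, Chrna1 (3.01, edgeR adjusted p = 0.0122), where 0.689% of all genes were called. In the Tead1/2 line 0 of 3 were called and 0.0% of all genes. The summed level there was 2.81 to 3.69 CPM in 3 mutants but 0.957 in the library labelled mutant 4, against 1.19 to 2.03 in controls.

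Proteins that assemble, traffic or modulate nicotinic receptors split in both directions. Of 10 genes tested in P7 all-cell sums, 4 rose and 5 fell with each deletion, with medians of 0.02 and -0.19, where 33.3% and 48.7% of all genes were called. Those that rose included Rapsn, which clusters the muscle receptor (3.42 and 4.83), and Lypd6 (1.04 and 2.01). Those that fell included Ric3, a chaperone of Chrna7 (-0.42 and -0.57), and in the Tead1/2 line Tmem35a, another such chaperone (-0.70). In granule-lineage sums 0 rose, and 2 fell with Insm1 and 1 with Tead1/2 deletion, where 19.7% and 22.5% of all genes were called. In progenitor-like cells 4 and 2 of 7 tested fell and 0 rose, where 19.5% and 23.9% of all genes were called. In neuron-like cells 2 and 1 of 8 fell and 0 rose, where 32.2% and 31.8% were called.

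Genes of acetylcholine synthesis, transport and breakdown were called more often higher than lower. Of 6 tested in all-cell sums, 3 rose and 1 fell with Insm1 deletion and 5 rose with Tead1/2 deletion, against the same 33.3% and 48.7% of all genes called. Colq, the collagen tail of the junctional esterase (5.43 and 6.99), and Ache, the esterase (3.21 and 4.44), led. In granule-lineage sums 2 of 5 tested rose with each deletion and 0 fell, where 19.7% and 22.5% of all genes were called. Colq was among them, at 4.15 and 5.03, and muscle transcripts in granule-lineage libraries were not tested as its source. In progenitor-like cells 1 of 4 rose with each deletion, and 0 and 1 fell (19.5% and 23.9% of all genes called). In neuron-like cells 4 of 5 rose with each deletion and 0 fell (32.2% and 31.8%). The limit of the low-count filter given for the muscle subunits may apply to Colq and to these counts as well. Chat, which makes acetylcholine, fell by 1.11 in the Insm1 line. Of 4 muscarinic receptors tested in all-cell sums, 0 changed with Insm1 deletion and Chrm1 rose with Tead1/2 deletion (0.93). In granule-lineage sums 0 of 2 were called with Insm1 deletion and 1 of 2 fell with Tead1/2 deletion, where 19.7% and 22.5% of all genes were called. In progenitor-like cells 1 of 2 fell with each deletion (19.5% and 23.9% of all genes called). In neuron-like cells 1 of 2 rose with Insm1 and 1 of 2 fell with Tead1/2 deletion (32.2% and 31.8%).

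Marker lists of tissue bordering the cerebellum changed in part, at shares to be read against the 33.3% and 48.7% of all genes called. Of 6 brainstem genes tested in P7 all-cell sums, 3 rose and 2 fell in the Insm1 line and 4 rose and 1 fell in the Tead1/2 line, with 9 of the 15 genes found staying under 0.1 CPM in every library. Isl1, a regulator of motor and sensory neurons, led these (4.56 and 5.48), and the same limit of the low-count filter may apply to it. The ganglia list rose in 3 of 7 and 4 of 7 and fell in 1 in each line, its summed level being 3.44 to 4.34 CPM in controls and 8.44 to 12.1 in mutants. The midbrain roof list, 5 tested, had 1 higher and 2 lower in each line, with the sums given above. Their part in the members' values was not tested.

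Dissection of lobules IX and X left no call among the members. Libraries with all lobules were set against those without, over both lines. Of 24098 genes 0.0% were called by edgeR, with 1560 at an unadjusted p under 0.05 and 18 called by DESeq2. Chrna3 differed by 0.15 ± 0.15 log2 units and Chrnb4 by 0.06 ± 0.21 (edgeR adjusted p = 0.831 and 0.958). Chrna4 and Chrna7 gave the smallest adjusted p of the 6 tested, 0.749 each.

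Genes near the chromosome 9 cluster gave other values. The 3 nearest protein-coding genes on either side were Psma4, AY074887 and Hykk before Chrna5, and Ube2q2, Fbxo22 and Nrg4 beyond Chrnb4. In P7 all-cell sums with Tead1/2 deletion Hykk rose by 0.48 log2 units (edgeR adjusted p = 0.00246), and Ube2q2 and Fbxo22 fell by 0.34 and 0.21 (0.00281 and 0.0132), where 48.7% of all genes were called. In granule-lineage sums none of the neighbours tested passed in either line, where 19.7% (Insm1) and 22.5% (Tead1/2) of all genes were called. Ube2q2 came nearest with Tead1/2 deletion, at -0.26 (edgeR adjusted p = 0.0603), and Nrg4 with Insm1 deletion, at 0.65 (0.0819). With Tead1/2 deletion Chrna3 and Chrnb4 stood at -2.98 ± 0.24 and -3.30 ± 0.31 there. The choice of members used these 2 genes, so setting them beside the neighbours is a description only. Chrna5 was at -1.68 ± 0.30 in the same fit (edgeR adjusted p = 0.001245).

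Likeness across libraries was taken as Pearson's r of log2 CPM over the 15 P2 libraries among 16373 genes. Those most like Chrna3 were Dcc (0.95), Fam84a (0.94), Plcb1 (0.94), Hsd11b2 (0.93) and Spns2 (0.92). Those most like Chrnb4 were Igsf9 (0.95), B4galnt1 (0.94), Stk36 (0.94), Pcdhga6 (0.92) and Aplp1 (0.92). Chrna3 and Chrnb4 correlated with each other at 0.86. The libraries share batch, line and genotype, so these are descriptions. Over 10 named P7 classes of the main selection, among 9961 genes, Chrna3 was most like Cog7, C130073E24Rik and Nt5dc2 (0.97 each), and Chrnb4 most like Ccdc85c (0.97), Map3k1 (0.97) and Sema7a (0.95). With the stricter selection Slc17a6, the vesicular glutamate transporter of young granule cells, was nearest to Chrna3 (0.99).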

How the data were processed

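Whole-cerebellum RNA at P2 (15 libraries, a stranded total RNA kit per the labels' protocols) and single cells at P7 (10 libraries, Parse Evercode, per the labels' protocols) were used, and chromatin data were not analysed here. The authors deposited expected counts per gene from RSEM for P2, and counts of UMIs per gene and cell for P7. The submitters' processing notes name STAR 2.7.9a, RSEM 1.3.3 and GRCm38.p6 among their tools and builds, and the P7 gene tables name GRCm39. Each bulk table held the columns of the other line than its name says, and columns were matched by name. The members and gene lists were chosen with earlier results of these data known.

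Expected counts were rounded, 92 spike-in rows were left out, and edgeR 4.0.16 (TMM, quasi-likelihood, R 4.3.3) was fitted across all genes that passed its low-count filter, per line at P2 and over all 10 libraries at P7. DESeq2 1.42.0 was an alternative. Cells with at least 1000 UMIs, 500 genes and at most 15% mitochondrial counts were kept (79838), the highest 5% of doublet scores per library were removed, and the rest were clustered with scanpy 1.11.5. A class was named from at least 3 markers. UMIs were summed per library and class, so that n is animals. CPM compare 1 gene between samples, never genes with each other. On simulated counts the P2 Insm1 fit recovered 71 of 100 genes changed by a fold of 2, the P2 Tead1/2 fit 84, the P7 all-cell Insm1 fit 53 and the fit of the Tead1/2 effect in granule-lineage sums 73. In the same order, 10, 21, 9 and 12 unchanged genes were called. These counts were drawn independently per gene around control means, with no library standing apart like the one labelled mutant 4. The 84 therefore does not carry over to the measured P2 Tead1/2 libraries. The members named are all 7, and from the lists those called, at most 8 per list. The doublet caller's own threshold did not work in some libraries and was kept as an alternative only. Same-numbered samples of a line correlated at -0.131 to 0.227 in their deviations, so numbers were not taken as pairs.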

Additional observations from a re-analysis of the deposited data

Results flagged for a closer look

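Chrna3 in the P2 Tead1/2 mutants had a single sample far from the others, 21.57 CPM in the library labelled mutant 4 against 8.28 to 10.1. Chrnb3, near its detection limit, had a highest Insm1 control of 0.2414 CPM at P2 that stood apart from the other 3. Of 21 groups examined for such samples, chance alone marks about 1 in 20. Chrna5 differed between both deletions in P7 granule progenitor-like cells, with an Insm1 effect 2.79 log2 units above the Tead1/2 effect. That call was lost under 3 of 12 alternatives. It differed also in sums over all granule-lineage cells, by 1.98 (edgeR adjusted p = 0.0447), a call lost under 8 of 15 alternatives. The Chrna7 effect had opposite signs in progenitor-like and neuron-like cells, the neuron value exceeding the progenitor value by 2.31 log2 units with Insm1 deletion and by 1.70 with Tead1/2 deletion. That difference between classes of the same libraries was not tested. In neuron-like cells the Tead1/2 call for Chrna7 was lost under 5 of 12 alternatives. Within clusters 0, 6 and 8 of the stricter selection, the groups of each line overlapped for Chrna7.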

How the results depend on the processing

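Of the values for single genes recomputed under alternatives, 1360 kept direction and side of the threshold or stayed within the spread, 63 moved by more than that spread, 51 lost and 7 gained a call, and 41 reversed. The direction of Chrna3 and Chrnb4 in Tead1/2 mutants was kept under each alternative run, at both ages and in both granule classes. Both genes were chosen for their response in these same libraries, so this is a description and no separate check. Counts of called genes moved more. For P2 Insm1 deletion DESeq2 called 312 genes, no low-count filter 212 and a sex term 88, and leaving out 1 library 64 to 132. For P2 Tead1/2 deletion these were 960, 1287 and 3, with 4 in a fit of all 15 libraries, and 0 to 646 with 1 library left out, 646 without the library labelled mutant 4. The P2 difference gave 17 with DESeq2, 11 without the filter and 0 to 8 with 1 library left out, and the P2 controls 305 to 3264. In P7 all-cell sums the stricter selection called 4598 (Insm1), 7637 (Tead1/2) and 209 (difference), and DESeq2 2118 for the difference. Leaving out 1 library gave 5525 to 8560, 8628 to 11784 and 96 to 1232. The contrast of dissections gave 18 with DESeq2 and 48 without the filter. In granule-lineage sums the difference gave 358 with DESeq2 and 740 without the filter, and leaving out 1 library gave 2170 to 3716, 2273 to 4033 and 57 to 305. In neuron-like cells the stricter selection called 2906 for Insm1 and DESeq2 158 for the difference, with 3250 to 5119, 3108 to 4856 and 26 to 158 on leaving out 1 library. In progenitor-like cells those ranges were 1931 to 3474, 2162 to 4016 and 149 to 506. The cause of these moves was not tested.

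With the replicate number as a block at P2, 64 genes were called for Insm1, 236 for Tead1/2 and 812 between controls. Chrna3 was then at -0.55 in the Insm1 line, -1.48 in the Tead1/2 line and, reversed, -0.023 between controls. The Tead1/2 line has no control 4, so its block takes up the library labelled mutant 4. That fit is therefore no separate check from the fit without this library, where Chrna3 was at -1.49. Numbers were not taken as pairs.

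Directions that reversed belonged mostly to values near 0. Ranges over all libraries left out in turn were -0.056 to 0.12 for Chrna7 in P2 Insm1 mutants and -0.13 to 0.028 for Chrna4 in the P2 difference. Between P2 controls they were -0.0053 to 0.23 for Chrna3 and -0.14 to 0.063 for Chrna5. At P7 they were -0.24 to 0.12 for Chrna5 in Insm1 all-cell sums, and -0.38 to 0.11 for Chrna7 and -0.19 to 0.013 for Chrnb2 in the granule-lineage difference. Chrnb4 in Insm1 neuron-like cells had -0.14 to 0.27 and Chrna3 in Insm1 progenitor-like cells -0.046 to 0.34. In the contrast of dissections the ranges were -0.046 to 0.33 (Chrna3), -0.10 to 0.38 (Chrnb4), -0.21 to 0.082 (Chrna5) and -0.086 to 0.031 (Chrnb2). Other doublet settings reversed Chrna5 in Insm1 all-cell sums (0.22 and 0.32), Chrnb4 in Insm1 neuron-like cells (-0.80), Chrna4 in the progenitor difference (-0.39), and Chrnb4 (-0.0091), Chrnb2 (0.012 and 0.090), Chrna5 (0.12) and Chrna4 (0.013) in the contrast of dissections.

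The stricter selection, the difference in granule-lineage sums, the alternatives within classes and the block between P2 controls were chosen after seeing the data. Granule-lineage sums without doublet removal were not run, since removed cells have no cluster. Chrna5, Chrna4 and Chrnb4 rest on few transcripts per library, and 2 controls per line at P7 limit each call: Chrna7 in granule-lineage sums was lost without Insm1 control 2 (0.0738) or Tead1/2 control 1 (0.0994), and Chrnb2 without Tead1/2 control 2 (0.0501). Nothing says that the 2 or 3 animals per group came from separate litters.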
